A study of Arabidopsis thaliana with 24 samples.

Results

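The plant defensins of the PDF1 group and the genes around them that respond to jasmonate and ethylene were followed in Arabidopsis roots. The set holds 9 genes among 27815 genes tested. They are the defensin genes PDF1.1 (AT1G75830), PDF1.2 (AT5G44420), PDF1.2b (AT2G26020), PDF1.2c (AT5G44430) and PDF1.3 (AT2G26010), the ERF transcription factor genes ORA59 (AT1G06160) and ERF1 (AT3G23240), and the pathogenesis-related genes PR3 (AT3G12500) and PR4 (AT3G04720). The members were taken by locus from the array annotation, and all 9 were found, with 10 probes, since PR3 has 2. The loci were chosen by how defensin genes responded to estradiol in the ISH1&2 and ISH1 plants of this same experiment, so the values of those 2 responses are given as a description with no test for these genes.

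RNA came from roots of 4 lines in the Col-0 background, each grown with and without 5 µM estradiol and each measured on 3 arrays, 24 arrays in all. The ISH1&2 plants carry both induced transcription factor genes (the study names them ATHB25/REM7-ind), the ISH1 and ISH2 plants carry 1 each, and the control plants carry neither. The labels do not say which factor ISH1 and ISH2 stand for. The factors sit behind a LexA operator that answers to an estradiol-activated transcription factor (the XVE system). That activator is made under a constitutive promoter, which does not limit it to a cell type. Which cells of the root were induced was not measured. Seedlings were moved after 8 d to plates with or without estradiol and roots were taken at 15 d. Nothing states that the 3 arrays of a group came from separate cultures, and the p-values then measure the spread between arrays only. In these whole roots, fewer cells of a type and less RNA per cell cannot be told apart.

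The arrays were 1-colour Agilent arrays, and levels are log2 signal with each array's 75th percentile set at 0. Between 76.9% and 90.9% of probes were well above background, and the highest share belonged to ISH1 without estradiol, replicate 1, which also correlated least with its own group (r = 0.973). ATHB25 stood at 4.14 to 4.36 in ISH1&2 and 5.16 to 5.31 in ISH1 with estradiol, against -1.18 to -0.14 and -4.60 to -4.19 without it, and was not well above background in control plants without estradiol. REM7 stood at 6.02 to 6.37 in ISH2 plants with estradiol, against -0.16 to 0.18 without it. In ISH1 plants REM7 stood at 2.59, 0.80 and -0.19 with estradiol, against -1.66, -1.60 and -1.56 without, so that it too was higher there with estradiol. In ISH1&2 plants REM7 was high in both conditions, 4.58 to 4.71 with estradiol and 4.52 to 4.64 without. The description of 2 control arrays (with estradiol, replicate 3, and without estradiol, replicate 2) contradicts their titles, and the titles were followed. Each of the 6 slides held the 4 lines of 1 treatment and replicate, each line at a fixed position. A response to estradiol therefore lies between slides, and line and position cannot be told apart.

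Plant defensins are small, secreted, cysteine-rich proteins that inhibit the growth of fungi. PDF1.2 is the standard marker of the branch of defence in which jasmonate and ethylene act together, and the transcription factors ORA59 and ERF1 are the activators of that branch that bind its GCC-box promoters. PR3, a basic chitinase, and PR4, a hevein-like chitin-binding protein, are used as further markers of the same branch, which acts against necrotrophic fungi. The other branch of the jasmonate response runs through MYC2 and includes VSP genes. The PDF1 genes are close paralogs. PDF1.2 and PDF1.2c are neighbours on 1 chromosome and PDF1.2b and PDF1.3 are neighbours on another, so that a probe may detect more than 1 of these transcripts. Probe sequences were not used here, and this was not tested.

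PDF1.1 was the member with the most variable expression without estradiol. In ISH1 plants its level was 1.38, 1.46 and 1.54 with estradiol, against -8.04, -8.86 and -8.25 without, where 1 of 3 arrays was well above background. The difference of 9.85 on the log2 scale equals 921-fold. In ISH1&2 plants PDF1.1 stood at -0.73, -1.23 and -0.50 with estradiol and at -1.91, -0.54 and -4.13 without. These 2 groups overlapped, and the difference of 1.37 fell to 0.41 when ISH1&2 without estradiol, replicate 3 was left out and came to 2.2 when replicate 2 of that group was left out. PDF1.1 was thus the 1 defensin gene of the 5 whose ISH1&2 arrays did not separate by treatment.

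PDF1.2 was the clearest on-off case among the defensin genes. In ISH1&2 plants its level was 0.67, -1.45 and -1.82 with estradiol, against -10.96, -10.78 and -10.84 without, where the signal on none of 3 arrays cleared the background. That makes PDF1.2 at least 234-fold higher with estradiol. An "at least" fold sets the brighter group against, on each dim array, the lowest signal well above background. In ISH1 plants PDF1.2 reached -6.99, -8.18 and -6.82 with estradiol and did not clear the background without it on 3 of 3 arrays, at least 2.18-fold. In ISH2 and control plants no array of either treatment showed PDF1.2 above its background, so these plants give no fold.

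PDF1.2b followed PDF1.2. Its level in ISH1&2 plants was -0.61, -2.63 and -3.17 with estradiol, against -8.38, -9.21 and -9.04 without (a difference of 6.74, with 1 of the 3 arrays without estradiol well above background). In ISH1 plants PDF1.2b stood at -6.85, -8.34 and -7.70 with estradiol and at -9.65, -8.96 and -8.79 without, where 2 of 3 arrays with and 1 of 3 without were well above background. The measured means differed by 2.84-fold, and the log2 difference was 0.72 to 1.86 over the alternatives. Both genes were far higher in induced ISH1&2 roots than in induced ISH1 roots, with no overlap between those arrays. Over the 24 arrays the levels of PDF1.2 and PDF1.2b correlated with r = 0.950. That figure describes arrays that share groups and carries no test. PDF1.2 cleared the background only in ISH1&2 and ISH1 plants with estradiol. This and the later correlations with PDF1.2 therefore rest on those groups set against background values.

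PDF1.2c and PDF1.3 were high in both lines. PDF1.2c stood at 0.00, -1.80 and -2.13 in ISH1&2 plants with estradiol, against -5.30, -4.16 and -6.61 without, a 16.5-fold difference. In ISH1 plants PDF1.2c stood at -1.97, -1.90 and -1.94 with estradiol, against -7.29, -6.55 and -7.36 without, a 35.0-fold difference. For PDF1.3 the ISH1&2 levels were 0.17, -1.63 and -1.99 with estradiol, against -4.75, -3.55 and -6.25 without, 13-fold. With 1 ISH1&2 array left out, the log2 difference was 3.39 (without replicate 1 with estradiol) to 4.65 (without replicate 2 without estradiol) for PDF1.2c and 3.00 (without replicate 3 without estradiol) to 4.35 (without replicate 2 without estradiol) for PDF1.3, beside 4.05 and 3.70 with all arrays. The ISH1 levels of PDF1.3 were -1.44, -1.30 and -1.36 with estradiol, against -6.92, -6.75 and -7.29 without, 49.3-fold. Levels of both genes in the 2 induced lines overlapped, unlike those of PDF1.2 and PDF1.2b.

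**Figure D1:**
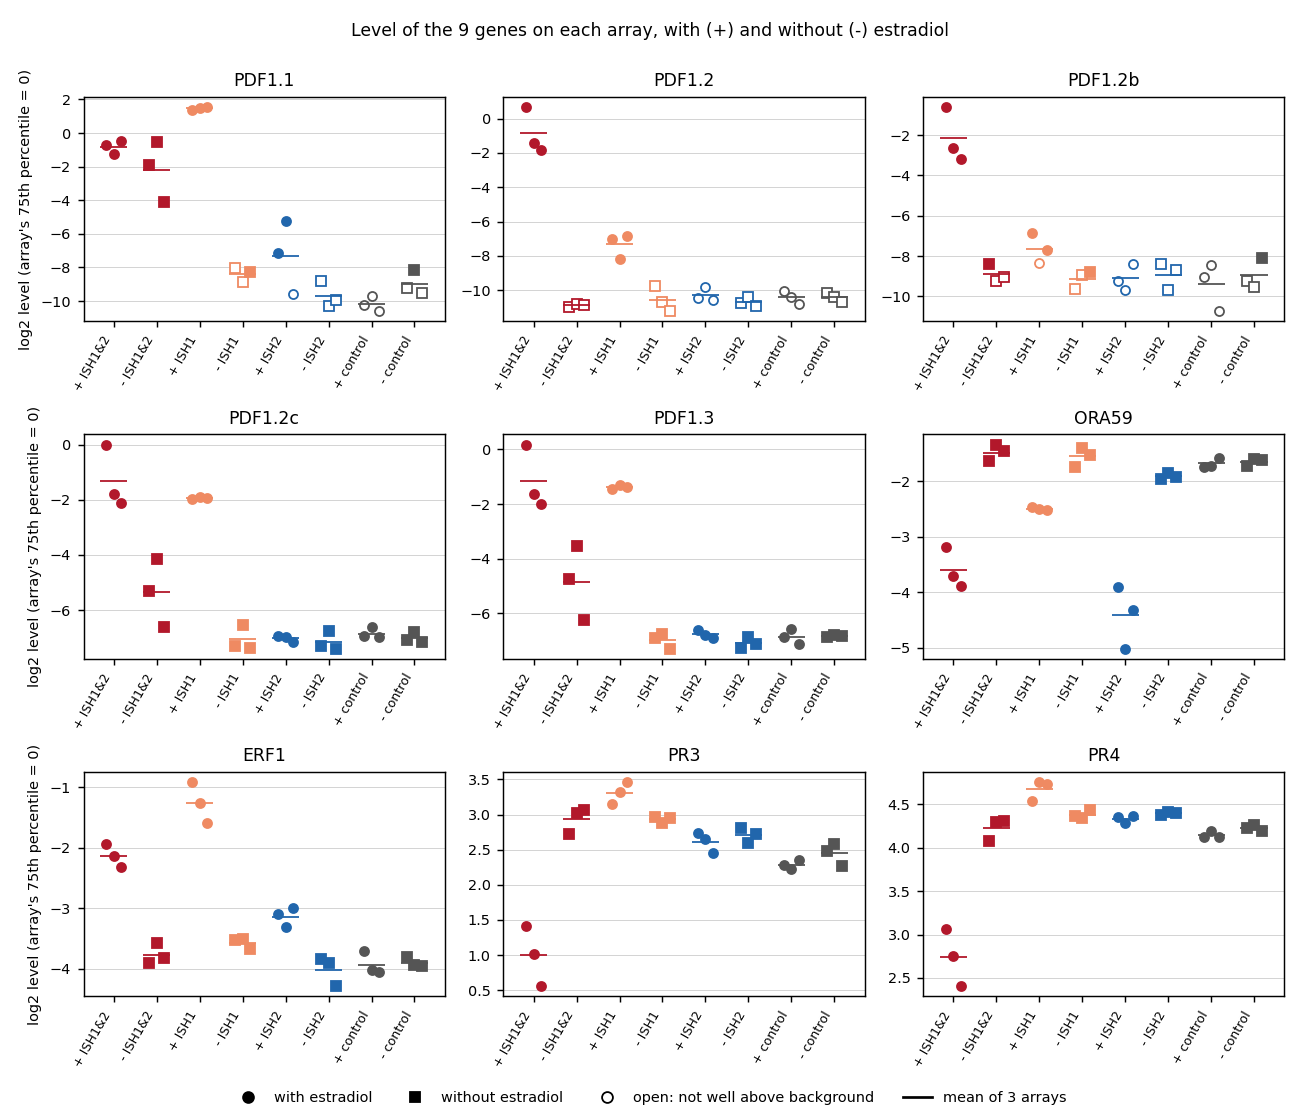
Each panel plots the log2 level of 1 gene (vertical axis, array's 75th percentile at 0) on the 3 arrays of each of 8 groups, circles with estradiol (+) and squares without (-), open symbols not well above background, lines the means of 3 arrays. PDF1.2 leaves the background in ISH1&2 and ISH1 plants with estradiol alone, while PDF1.1 is well above background in ISH1&2 plants in both conditions.

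Likeness of pattern did not follow position on the chromosome. PDF1.2c and PDF1.3, which are not neighbours, correlated with r = 0.996 over 24 arrays, and PDF1.1 correlated with r = 0.914 with PDF1.3 and 0.889 with PDF1.2c. All 3 arrays of a group cleared the background for PDF1.1 only in induced ISH1 plants and in ISH1&2 plants in both conditions. The correlations of PDF1.1 rest largely on those groups. PDF1.2c correlated with r = 0.849 with its neighbour PDF1.2, and PDF1.3 with r = 0.754 with its neighbour PDF1.2b. The order of the arrays within groups ran alike as well. Among the ISH1&2 arrays without estradiol, PDF1.1, PDF1.2c and PDF1.3 were each highest on replicate 2 and lowest on replicate 3. Among the ISH1&2 arrays with estradiol, PDF1.2, PDF1.2b, PDF1.2c and PDF1.3 were each highest on replicate 1 and lowest on replicate 3, and PDF1.1 was not. Whether the probes for PDF1.2c and PDF1.3 detect transcripts of PDF1.1 or PDF1.2 was not tested.

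The defensins were next compared between lines without estradiol. The ISH1&2 arrays in this comparison are also the arrays without estradiol of the response by which the loci were chosen, so it is not independent of that choice. In ISH1&2 against control plants, PDF1.1, PDF1.2c and PDF1.3 rose, 3 of 9 members, where 9.62% of all genes tested were called in either direction (limma, adjusted p below 0.05). PDF1.1 had a mean of -2.19 ± 1.81 in ISH1&2 plants and -8.96 ± 0.71 in control plants (SD, n = 3 each), a difference of 6.77 (SE 0.86, adjusted p = 1.915e-04, 109-fold), with 1 of 3 control arrays well above background. On the 3 slides that held both lines without estradiol, PDF1.1 was higher in ISH1&2 plants by 7.29, 7.62 and 5.39. PDF1.3 had a mean of -4.85 ± 1.36 in ISH1&2 plants and -6.83 ± 0.04 in control plants, a difference of 1.98 (SE 0.51, adjusted p = 0.0216). PDF1.2c averaged -5.36 ± 1.23 in ISH1&2 plants and -7.01 ± 0.20 in control plants, a difference of 1.66 (SE 0.50, adjusted p = 0.0436). Within slides PDF1.3 differed by 2.11, 3.24 and 0.59 and PDF1.2c by 1.80, 2.63 and 0.54, and replicate 3 gave the lowest difference for each of the 3 genes.

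These calls were not equally firm. The PDF1.1 call was lost in 1 of 17 alternatives, the fit to the 6 arrays compared (adjusted p = 0.0575), and its difference was 3.82 with normexp and 5.94 (without ISH1&2 replicate 2) to 7.73 (without ISH1&2 replicate 3) with 1 array left out. The call was lost in 11 of 18 alternatives for PDF1.2c and in 9 of 18 for PDF1.3. For both genes these included quantile normalization, normexp, the fit to the arrays compared, the fit without the 2 control arrays of contradictory description, and each fit that lacked 1 of the 6 arrays compared, except the one without ISH1&2 replicate 3. With 1 array left out, PDF1.2c differed by 1.06 to 2.28 and PDF1.3 by 1.33 to 2.68, each lowest without ISH1&2 replicate 2 and highest without ISH1&2 replicate 3. In the same roots without estradiol, ATHB25 and REM7 were already above control plants in all 3 ISH1&2 arrays. Without estradiol, ATHB25 was also above control on all 3 ISH1 arrays (-4.60 to -4.19), and REM7 on all 3 ISH2 arrays (-0.16 to 0.18). PDF1.1 was not called in those 2 lines (0.57 and -0.73, limma, adjusted p = 0.832 and 0.850). In ISH1&2 plants without estradiol, 4 of 6 seed marker genes were well above background on all 3 arrays. The summed level of the 6 seed marker genes, relative to the 75th percentile, was 0.0563 to 0.598 in ISH1&2 plants without estradiol and 0.0102 to 0.0149 in control plants without estradiol. The part of these values in the defensin levels was not tested.

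**Figure D2:**
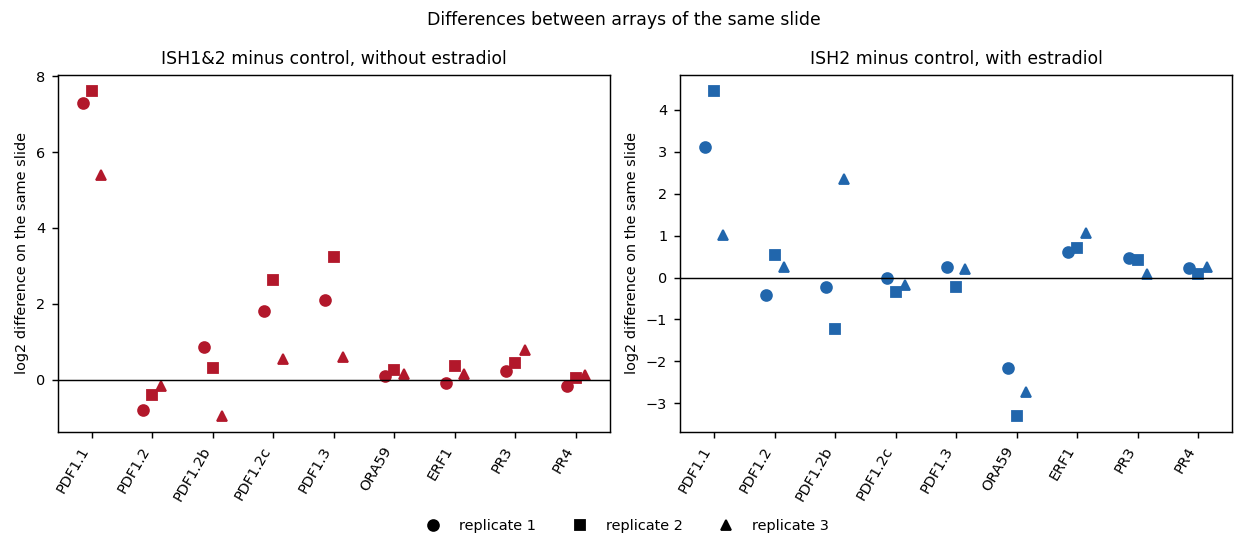
Points give the log2 difference between 2 arrays of the same slide for each of the 9 genes, ISH1&2 minus control without estradiol on the left and ISH2 minus control with estradiol on the right, with 1 symbol per replicate. PDF1.1 lies 5.39 to 7.62 above control in uninduced ISH1&2 plants, and ORA59 lies 2.16 to 3.29 below control in induced ISH2 plants.

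The transcription factor genes moved in opposite directions. ORA59 was lower with estradiol in each transgenic line. Its level was -3.19, -3.71 and -3.88 in ISH1&2 plants with estradiol, against -1.65, -1.35 and -1.47 without (4.31-fold lower). In ISH1 plants ORA59 stood at -2.46, -2.51 and -2.52 with estradiol, against -1.75, -1.40 and -1.53 without (1.92-fold lower). No arrays overlapped in either comparison. In the same arrays PDF1.2 was higher, and so was ERF1, the other activator of the branch. The part of either factor in the PDF1.2 level was not tested.

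In ISH2 plants, whose response did not choose the genes, ORA59 fell and ERF1 rose. ORA59 stood at -3.90, -5.01 and -4.31 in ISH2 plants with estradiol, against -1.97, -1.85 and -1.92 without. The difference was -2.49 (SE 0.20, adjusted p = 1.087e-08, 5.63-fold lower), and ORA59 reached its lowest level of all groups there. In control plants ORA59 did not pass the test (-0.03, SE 0.20, adjusted p = 0.950). The response of ISH2 plants differed from that of control plants by -2.46 (SE 0.28, adjusted p = 3.691e-06). On the 3 slides with estradiol ORA59 was below control by 2.16, 3.29 and 2.73.

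ERF1 was higher with estradiol in each transgenic line. It stood at -1.94, -2.14 and -2.32 in ISH1&2 plants with estradiol, against -3.90, -3.57 and -3.82 without (3.09-fold). In ISH1 plants ERF1 stood at -0.92, -1.26 and -1.59 with estradiol, against -3.51, -3.51 and -3.68 without (4.96-fold). ERF1 rose in ISH2 plants, with -3.10, -3.31 and -2.99 with estradiol, against -3.84, -3.90 and -4.28 without, a difference of 0.87 (SE 0.16, adjusted p = 1.547e-04, 1.83-fold). The 3 lines thus shared the direction for both factors, and the order of size ran ISH1, ISH1&2, ISH2 for ERF1 and ISH2, ISH1&2, ISH1 for ORA59. The response of ERF1 in ISH2 plants exceeded that of control plants by 0.90 (SE 0.22, adjusted p = 0.00614), a call that was lost with normexp background correction (0.39, adjusted p = 0.606).

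Of the 9 members, 3 were called in the estradiol response of ISH2 plants, 2 higher and 1 lower, where 27.3% of all genes were called higher and 21.9% lower. The third was PDF1.1, which rose to -7.14, -5.25 and -9.59 in ISH2 plants with estradiol, against -8.79, -10.32 and -9.95 without, where none of the arrays was well above background. The arrays overlapped, and PDF1.1 was at least 2.53-fold higher (log2 difference 2.36, SE 0.86, adjusted p = 0.0298). The call was lost in 8 of 17 alternatives, among them leaving out any 1 of 4 of the 6 arrays, and without ISH2 with estradiol, replicate 2 the difference was 1.32 (adjusted p = 0.200). Between the responses of ISH2 and control plants, 3 of 9 members were called different, where 21.2% of all genes were. ORA59 and ERF1 are 2 of them. The third, PDF1.1 (3.59, SE 1.21, adjusted p = 0.0429), was well above background on 0 of 3 ISH2 arrays without estradiol, 0 of 3 control arrays with it and 1 of 3 control arrays without it, so the size of this difference is not measured, and the call was lost or reversed in 15 of 23 alternatives (-0.15 to 4.72).

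PDF1.2c and PDF1.3 were well above background in ISH2 plants in both conditions and did not pass the test there, at 0.13 (SE 0.50, adjusted p = 0.859) and 0.32 (SE 0.51, adjusted p = 0.640). PR3 and PR4 did not pass it either, at -0.10 (SE 0.15, adjusted p = 0.637) and -0.06 (SE 0.11, adjusted p = 0.693). In ISH2 plants, ORA59 and ERF1 thus changed while PDF1.2c, PDF1.3, PR3 and PR4 did not pass the test.

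The PR genes were lower with estradiol in ISH1&2 plants and higher with it in ISH1 plants. PR3 stood at 1.41, 1.02 and 0.56 in ISH1&2 plants with estradiol, against 2.73, 3.02 and 3.06 without, 3.84-fold lower. In ISH1 plants PR3 stood at 3.15, 3.31 and 3.46 with estradiol, against 2.96, 2.88 and 2.95 without, 1.3-fold higher. The second PR3 probe gave -1.85 in ISH1&2 plants and 0.77 in ISH1 plants, the same directions. PR4 stood at 3.06, 2.75 and 2.41 in ISH1&2 plants with estradiol, against 4.07, 4.29 and 4.31 without, 2.81-fold lower. In ISH1 plants PR4 stood at 4.54, 4.76 and 4.73 with estradiol, against 4.37, 4.34 and 4.43 without, 1.23-fold higher. The arrays of each of these 4 comparisons did not overlap. Over the 24 arrays PR3 and PR4 correlated with r = 0.953. PR4 correlated with PDF1.2 with r = -0.792, where PDF1.2 cleared the background only in ISH1&2 and ISH1 plants with estradiol.

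**Figure D3:**
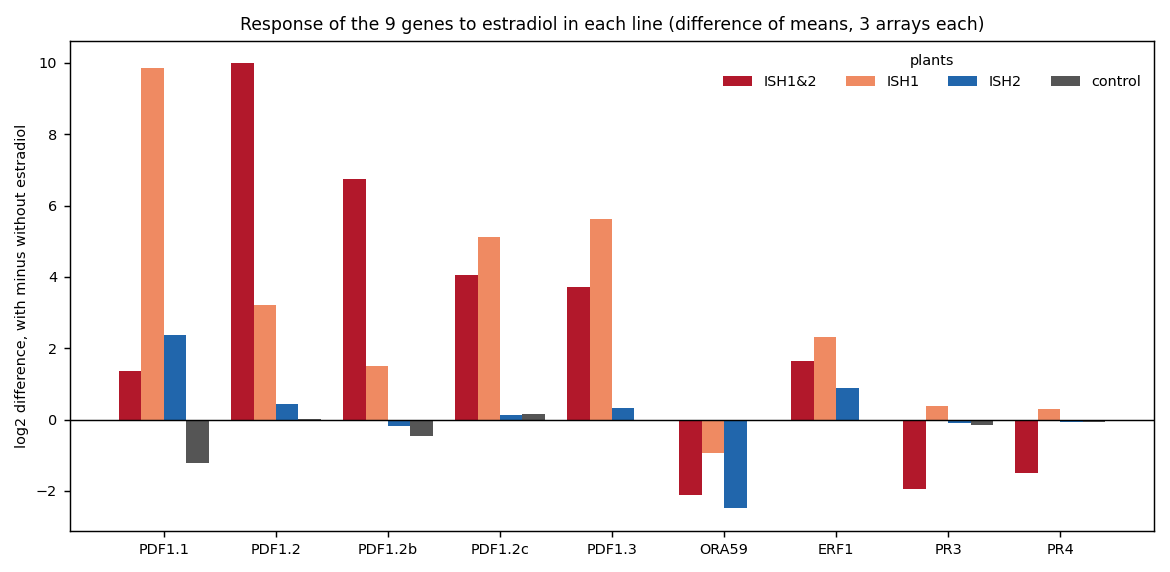
Bars give the log2 difference between the means of 3 arrays with and 3 arrays without estradiol for each gene in ISH1&2, ISH1, ISH2 and control plants. The defensin bars point up and the ORA59 bars point down in ISH1&2 and ISH1 plants, while PR3 and PR4 point down in ISH1&2 and up in ISH1 plants. Bars of PDF1.2 rest on arrays without estradiol that were not well above background.

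Counted over the set, 5 members lay higher on all 3 arrays with estradiol than on all 3 without in ISH1&2 plants and 8 did in ISH1 plants, where 35.2% and 26.9% of all genes did. Those counts, and the 10-fold counts given next for these 2 lines, follow from the choice of the genes and carry no further reading. At least 10-fold higher were 4 members in ISH1&2 plants (PDF1.2, PDF1.2b, PDF1.2c and PDF1.3), where 2.71% of all genes were, and 3 members in ISH1 plants (PDF1.1, PDF1.2c and PDF1.3), where 2.48% were. Just inside this limit was PDF1.3 in ISH1&2 plants at 13-fold, and the next below it among folds measured in both conditions was ERF1 in ISH1 plants at 4.96-fold. PDF1.2 in ISH1 plants has only its bound of at least 2.18-fold and cannot be placed against the limit. When all 6 arrays had to clear the background, 2 members (PDF1.2c and PDF1.3) remained in ISH1&2 plants and the same 2 in ISH1 plants. No member was 10-fold higher in ISH2 or control plants.

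None of the 9 genes passed the threshold between control plants with and without estradiol (limma), where 7.14% of all genes were called higher and 7.85% lower. At an unadjusted p below 0.05 the count was also 0 of 9. The widest difference there was PDF1.1 at -1.23 (SE 0.86, adjusted p = 0.378), on arrays mostly below background, and its sign turned in an alternative (-1.51 to 0.74). Without estradiol, 0 of 9 members were called in ISH1 against control plants and 0 of 9 in ISH2 against control plants, where 0.766% and 0.651% of all genes were called. At an unadjusted p below 0.05 these counts were 2 (ERF1 and PR3) and 0. PR3 in ISH1&2 against control plants without estradiol missed the threshold at 0.49 (SE 0.15, adjusted p = 0.0520).

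Ranked by level, the groups fell in a different order for each kind of gene. For PDF1.1 the order was ISH1 with estradiol, ISH1&2 with and then ISH1&2 without, and below these came 5 groups whose neighbours in rank overlapped. For PDF1.2 induced ISH1&2 plants were followed by induced ISH1 plants with no overlap, and the other 6 groups lay below background. ORA59 overlapped among the 4 highest groups, all of them uninduced plants or control plants, and then fell in steps without overlap through uninduced ISH2, induced ISH1, induced ISH1&2 and induced ISH2 plants. ERF1 showed 3 induced groups on top with no overlap between them. PR3 and PR4 were both highest in induced ISH1 plants and lowest in induced ISH1&2 plants.

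Of the 106 other genes listed, 99 could be tested. The lists cover the jasmonate, ethylene and defensin pathways and also hold 3 salicylate marker genes (PR1, PR2 and PR5), which are part of the counts below. In ISH1&2 plants 54 rose and 24 fell with estradiol, where 31.6% of all genes rose and 33.0% fell. In ISH1 plants 52 rose and 18 fell, where 26.3% of all genes rose and 36.4% fell. In ISH2 plants 40 rose and 19 fell, where 27.3% of all genes rose and 21.9% fell. In control plants 11 rose and 14 fell, where 7.14% of all genes rose and 7.85% fell, and with any 1 control array left out 5 to 7 rose and 7 to 12 fell. The response of ISH2 plants lay above that of control plants for 23 of the 99 genes and below it for 13, where 21.2% of all genes were called in either direction. Without estradiol, 3 were higher and 11 lower in ISH1&2 than in control plants, where 9.62% of all genes were called. The median log2 difference over the 99 genes was 0.29 in ISH1&2, 0.34 in ISH1, 0.14 in ISH2 and -0.005 in control plants, beside -0.01, -0.08, 0.04 and -0.002 over all genes. The lists were chosen with earlier results of these data known. Most genes named from them below were picked by the size of their called response in ISH1&2 plants or by opposite calls between lines. Their p-values in the transgenic lines are therefore not independent of that choice. The shares of all genes given here are those to set beside the counts of each single list that follow.

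Among the defensin genes outside the set, 6 of 7 tested rose and 0 fell in ISH1&2 plants, 3 rose and 1 fell in ISH1 plants, 5 rose and 1 fell in ISH2 plants, and 2 rose and 0 fell in control plants. PDF1.4 led them. It stood at 0.31, 0.85 and 0.61 in ISH1&2 plants with estradiol, against -6.68, -6.35 and -5.74 without, a difference of 6.85 (115-fold). Defensin responses in ISH1&2 and ISH1 plants were in view when the loci were chosen. The counts and differences of these defensin genes in those 2 lines are therefore a description, and no p-value is given for them. PDF1.4 was higher with estradiol in ISH1 plants by 6.14. It rose in ISH2 plants by 2.35 (adjusted p = 4.930e-08) and in control plants by 0.76 (adjusted p = 0.0209). The response of PDF1.4 in ISH2 plants exceeded that of control plants by 1.59 (SE 0.30, adjusted p = 7.174e-04). PDF1.5 rose 3.49-fold in ISH1&2 plants, 1.57-fold in ISH1 plants and 1.35-fold in ISH2 plants, and PDF2.1 rose 3.69-fold, 4.26-fold and 2.21-fold in the same lines.

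Of 14 genes for making jasmonate, 10 rose and 2 fell in ISH1&2 plants, 11 rose and 2 fell in ISH1 plants, 7 rose and 0 fell in ISH2 plants, and 3 rose and 1 fell in control plants. LOX3, a 13-lipoxygenase of the first step, rose by 5.21 in ISH1&2 plants, 4.99 in ISH1 plants, 1.19 in ISH2 plants and 1.33 in control plants (adjusted p = 8.022e-10, 2.040e-09, 0.0139 and 0.0235). AOC1, an allene oxide cyclase, rose by 3.48 in ISH1&2 plants and 1.55 in ISH1 plants. LOX2, another 13-lipoxygenase, rose by 5.38 in ISH1&2 plants (adjusted p = 2.208e-05), 2.92 in ISH1 plants and 2.88 in control plants (adjusted p = 0.0298), and the control value rests on 1 array, since LOX2 stood at -6.82, -2.29 and -6.25 in control plants with estradiol, against -7.89, -8.54 and -7.60 without. JMT, which methylates jasmonate, rose by 3.07 in ISH1&2 plants, fell by 0.53 in ISH1 plants and rose by 0.52 in ISH2 plants. Of the genes that break jasmonate down, 5 of 9 rose and 3 fell in ISH1&2 plants, 5 rose and 0 fell in ISH1 plants, 6 rose and 1 fell in ISH2 plants, and 2 rose and 0 fell in control plants. JOX3, a jasmonate hydroxylase, rose 30.6-fold in ISH1&2 plants, 24.0-fold in ISH1 plants and 5.24-fold in ISH2 plants. JOX4 rose by 2.62 in ISH1&2, 1.99 in ISH1 and 1.74 in ISH2 plants. It also rose by 2.18 in control plants (limma, adjusted p = 1.118e-05), which carry neither factor gene. CYP94B3, which oxidises the active jasmonate-isoleucine, fell by 1.34 in ISH1&2 plants and rose by 0.71 in ISH2 plants.

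The list of jasmonate perception and repressor genes includes the JAZ repressors, which hold jasmonate responses back, and also COI1, NINJA and MED25. Of its 15 genes, 7 were higher and 6 lower in ISH1&2 plants. The counts were 6 and 5 in ISH1 plants, 3 and 6 in ISH2 plants and 0 and 1 in control plants. Over all genes, 31.6% were higher and 33.0% lower in ISH1&2 plants, and 26.3% and 36.4% in ISH1 plants. The shares were 27.3% and 21.9% in ISH2 plants and 7.14% and 7.85% in control plants. JAZ10 rose in each of the 3 lines, by 1.74, 1.41 and 0.55 in ISH1&2, ISH1 and ISH2 plants. JAZ4 fell in each, by 1.93, 2.14 and 1.53. JAZ9 rose by 1.91 in ISH1&2 plants (adjusted p = 4.077e-11), whereas in ISH2 plants it fell by 1.56 (adjusted p = 2.299e-09), and JAZ5 likewise gave 1.24 in ISH1&2 and -0.46 in ISH2 plants. The MYC branch gave 3 of 9 higher and 4 lower in ISH1&2 plants and the same counts in ISH1 plants, and 2 higher and 3 lower in ISH2 plants and again in control plants. VSP1, the vegetative storage protein marker of that branch, fell by 1.01, 1.34 and 1.47 in ISH1&2, ISH1 and ISH2 plants and by 0.46 in control plants, and NAC019, a NAC factor downstream of MYC2, rose by 6.34, 6.67, 2.33 and 1.46 in ISH1&2, ISH1, ISH2 and control plants.

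Ethylene genes were counted by step, beside the same shares of all genes (31.6% higher and 33.0% lower in ISH1&2 plants). Of 12 synthesis genes, 6 rose and 4 fell in ISH1&2 plants, 5 and 3 in ISH1 plants, 3 and 5 in ISH2 plants and 1 and 4 in control plants. ACS7, an ACC synthase, rose by 2.26, 2.28 and 1.92 in ISH1&2, ISH1 and ISH2 plants, and ACO3, an ACC oxidase, fell by 4.63, 2.4 and 2.32 in those lines and by 0.75 in control plants. ACS9 was at least 9.01-fold higher in ISH1&2 plants (adjusted p = 7.203e-05). Of 12 receptor and signalling genes, 7 rose and 0 fell in ISH1&2 plants, 4 rose and 2 fell in ISH1 plants, 7 rose and 0 fell in ISH2 plants, and 1 rose and 0 fell in control plants. ETR2, an ethylene receptor, rose by 0.87 in ISH1&2 plants and 0.33 in ISH2 plants and fell by 0.39 in ISH1 plants, and EIL1, an EIN3-like factor, rose by 0.79, 0.34 and 0.14 in ISH1&2, ISH1 and ISH2 plants.

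Of 14 other ERF genes, 6 rose and 4 fell in ISH1&2 plants, 10 rose and 0 fell in ISH1 plants, and 6 rose and 3 fell in ISH2 plants. In control plants 0 rose and 5 fell. ERF13 rose 5.27-fold in ISH1&2 plants and 4.4-fold in ISH1 plants. ERF14 fell by 0.84 in ISH1&2 plants (adjusted p = 0.0156) and rose by 2.24 in ISH1 plants (adjusted p = 2.027e-06). In control plants ERF14 fell by 1.80 (adjusted p = 5.160e-04). ERF15 rose by 0.60 in ISH1 plants and fell by 1.02 in ISH2 plants. ERF1A, a GCC-box activator, rose by 1.17 in ISH1 plants and 0.46 in ISH2 plants and fell by 0.25 in ISH1&2 plants.

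**Figure D4:**
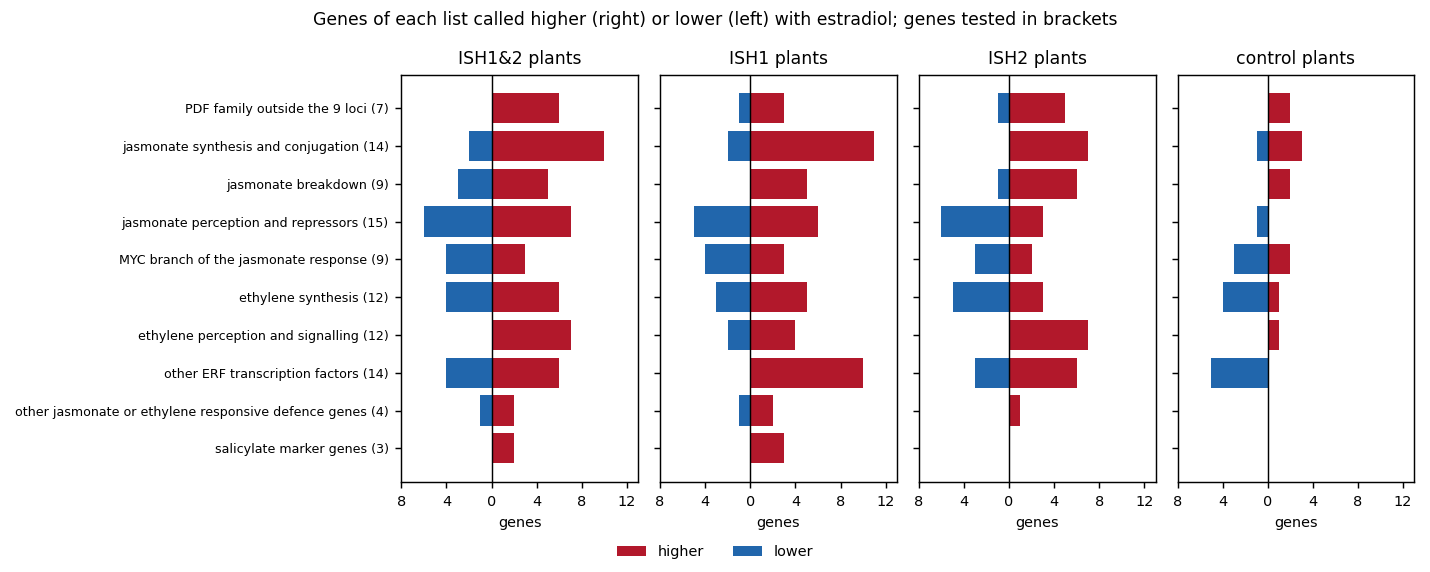
Bars count the genes of each of 10 pathway lists called higher (right) or lower (left) with estradiol in ISH1&2, ISH1, ISH2 and control plants, with the number tested in brackets (limma, adjusted p below 0.05). Among jasmonate synthesis genes 10 of 14 rose in ISH1&2 plants and 11 in ISH1 plants, and among other ERF genes 10 of 14 rose in ISH1 plants with none lower.

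Further defence genes included the strongest differences on the lists. PR1, a marker of the salicylate response, stood at -1.11, -0.50 and -0.86 in ISH1&2 plants with estradiol and was below background on the 3 arrays without, at least 241-fold (adjusted p = 5.633e-10). In ISH1 plants PR1 stood at 0.98, 0.45 and -0.30 with estradiol, against -7.23, -10.27 and -9.39 without (adjusted p = 2.728e-10, 648-fold, 1 of 3 arrays without estradiol well above background). PR2, a beta-1,3-glucanase, was at least 56.0-fold higher in ISH1&2 plants (adjusted p = 6.460e-07) and 420-fold higher in ISH1 plants (adjusted p = 6.414e-08). PR5, a thaumatin-like protein, rose by 1.88 in ISH1 plants and gave 0.26 (SE 0.22, adjusted p = 0.322) in ISH1&2 plants. None of the 3 was called in ISH2 or control plants. OSM34, an osmotin-like protein, fell by 2.80 in ISH1&2 plants (adjusted p = 9.925e-09) and rose by 0.66 in ISH1 plants and 0.66 in ISH2 plants, the same directions as PR3 and PR4 in the first 2 lines. THI2.1, a thionin, was at least 12.3-fold higher in ISH1&2 plants (adjusted p = 2.936e-04) and was not called in the other lines.

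Marker genes of other tissues moved with the treatment. All 6 root markers were well above background in every group, with a summed level of 17.8 to 18.8 in ISH1&2 plants with estradiol and 23.6 to 26.9 without. The 6 green tissue markers summed to 109 to 120 in ISH1&2 plants with estradiol, against 29.8 to 36.1 without, and to 4.73 to 6.48 in ISH2 plants with estradiol, against 29.9 to 35.1 without. In ISH1 plants, where PDF1.1, PDF1.2c and PDF1.3 were highest or near it, the green markers summed to 20.1 to 26.6 with estradiol and 31.8 to 33.3 without. In ISH1&2 plants with estradiol, high green markers thus occurred together with high PDF1.2 and PDF1.2b and low PR3 and PR4. In ISH1 plants PDF1.2 and PDF1.2b were also higher with estradiol on all arrays, while the green markers were lower. Low ORA59 accompanied both the high green markers in ISH1&2 plants and the low green markers in ISH2 plants. The part of these markers in the member levels was not tested.

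The genes most like each member over the 24 arrays were looked up as a description with no test. PDF1.1 ran closest to GEA6, an embryo-stage LEA protein gene (r = 0.933 over 24 arrays and 0.964 over the 8 group means), and to ATHB25, 1 of the induced genes (r = 0.930 and 0.948). These values of PDF1.1 rest largely on induced ISH1 plants and on ISH1&2 plants in both conditions. In the other groups not all 3 arrays of PDF1.1 cleared the background. PDF1.2 ran closest to AT2G20835, FAD8, RLP1 and MYB96, with r between 0.975 and 0.977 over 24 arrays and the array feature EF183092 between them. These values rest on ISH1&2 and ISH1 plants with estradiol, the only groups in which PDF1.2 cleared the background. FAD8, a plastid fatty acid desaturase, was higher by 2.76 in ISH1&2 and 1.14 in ISH1 plants with estradiol. ORA59 ran closest to LBD4 (r = 0.952), which was lower by 0.89, 0.85 and 1.44 in ISH1&2, ISH1 and ISH2 plants, and AT1G78460 (r = 0.946) was lower by 3.18, 2.76 and 4.15. PR4 ran closest to PLDGAMMA1, a phospholipase D gene (r = 0.990), and AT4G16260 (r = 0.989), with differences of -0.84 and -2.75 in ISH1&2 plants and 0.24 and 0.33 in ISH1 plants.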

How the data were processed

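Per the labels, RNA from roots was labelled with Cy3 and read on 1-colour arrays with Agilent Feature Extraction 10.7.3.1. The deposited scanner files hold the processed intensity of each spot, background-corrected by that software, and the authors' value table holds normalized log2 values that correlate with those computed here with r of at least 0.99992. That table served as an alternative. Intensities were set to log2 and each array's 75th percentile was subtracted. Control spots and 346 outlier spots marked by the scanner software were left out, and no value was saturated. A probe entered the tests if all 3 arrays of some group among the 8 cleared its background, and each gene was read from its brightest such probe (27815 genes, 22280 with a locus).

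Groups were compared with limma 3.58.1 (R 4.3.3) over all 24 arrays, two-sided, with Benjamini-Hochberg adjustment over all genes and a threshold of 0.05. The number of arrays limits the precision. Scripts were tested on simulated data. The members and lists were chosen with earlier results of these data known. Named are all 9 loci, PDF1.4, PDF1.5, ATHB25 and REM7, and up to 5 genes most correlated with PDF1.1, PDF1.2, ORA59 and PR4. Pathway genes were picked by rule as the 3 per list with the largest called response in ISH1&2 plants. To these came those called in opposite directions in 2 transgenic lines (up to 3 per list). Not all pathway genes so picked are named in the text. PR5 was added after its values were seen. RefSeq (TAIR10.1) gave names and neighbours. Planned sequence comparisons of proteins and promoters were not run. Same-numbered replicates did not deviate together (r from -0.04 to 0.10 over 12 pairs), so replicate numbers were not used in the tests. Alternatives covered normalization, background, pseudocount, floor, filter, probe, blocks, arrays in the fit and each array left out.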

Additional observations from a re-analysis of the deposited data

Results flagged for a closer look

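Several members responded differently between lines. By a test of the difference itself, the response of ISH2 plants exceeded that of control plants for ERF1 (0.90 on the log2 scale) and lay below it for ORA59 (-2.46). PDF1.1 was called as well (3.59), but with 0 of 3 ISH2 arrays without estradiol, 0 of 3 control arrays with it and 1 of 3 control arrays without it well above background, and the call was lost or reversed in 15 of 23 alternatives.

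In other cases every array of 1 line moved one way and every array of another line the opposite way, and the difference was not tested. PR3 was lower with estradiol in ISH1&2 plants (-1.94) and higher in ISH1 plants (0.38). PR4 was lower in ISH1&2 plants (-1.49) and higher in ISH1 plants (0.30), and it was also lower on each ISH2 array (-0.0582), a difference that did not pass the test in ISH2 plants. PDF1.1 was higher in ISH1 plants (9.85) and lower on each control array (-1.23). The control value gives no direction, since 3 of 3 control arrays with estradiol and 2 of 3 without it were not well above background and its sign turned in an alternative (-1.51 to 0.74).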

How the results depend on the processing

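Of 1014 alternative values of the 54 tested member results, 964 kept their side of the threshold, 44 lost a call, 5 gained one and 1 called value reversed. The 964 include results that passed no test and changed sign, such as PDF1.2b in control plants (-0.92 to 0.90). The reversal was PDF1.1 in the response of ISH2 against that of control plants, at -0.15 with normexp background correction, a gene near background there. The 5 gained calls were PR3 in ISH1&2 against control plants without estradiol. Members called in ISH1&2 against control plants without estradiol numbered 1 with quantile normalization, with normexp and without the 2 control arrays of contradictory description, and 0 when only the arrays compared were fitted. Leaving out 1 array gave 1 to 3. Members differing between the responses of ISH2 and control plants numbered 1 with normexp, and 2 to 3 with 1 array left out. Members called in the response of ISH2 plants numbered 2 to 3, and in the other comparisons 0, with 1 array left out. At least 10-fold higher were 2 members in ISH1&2 plants and 2 in ISH1 plants when all 6 arrays had to be well above background. With 1 array left out the count was 3 to 4 in ISH1&2 and 3 to 4 in ISH1 plants.

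Pathway genes called higher numbered 50 to 56 in ISH1&2, 48 to 52 in ISH1, 37 to 40 in ISH2 and 5 to 7 in control plants with 1 array left out, and those called lower 22 to 25, 18 to 19, 15 to 19 and 7 to 12. Normexp gave 10 lower in ISH2 plants, and 5 higher and 9 lower in control plants. In control plants the second probe of a gene gave 7 higher, the arrays compared alone 7 higher, and the fit without the 2 control arrays of contradictory description 5 higher and 5 lower. The cause was not tested. With the replicate block, 56 pathway genes rose and 24 fell in ISH1&2 plants, and the block changed no member's call. Slide as a block changed none either. Low signal limits PDF1.1, PDF1.2 and PDF1.2b, whose responses shrink with normexp, a floor or a pseudocount of 16. PDF1.2c and PDF1.3 in ISH1 plants depended on the setting too. Their log2 differences ran from 3.87 to 5.91 and from 4.27 to 6.36 over the alternatives, beside 5.13 and 5.62 in the main fit. The response of PDF1.2 in ISH1&2 plants was lowest, at 5.36, with normexp.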
